A study of Mus musculus with 6 samples.

Results

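Toll-like receptors are the sensors with which cells of the innate immune system recognise microbial molecules and products of damaged tissue. The genes described here were chosen by symbol and were Tlr1, Tlr2, Tlr3, Tlr4, Tlr6, Tlr7, Tlr8 and Tlr9, together with Myd88 and Ticam1, which encode the adaptors that carry the signal of these receptors into the cell. They were 10 of the 17556 genes listed, and all 10 were among the 13817 genes that passed the filter on low counts. The rule uses symbols and no measured value, and it was set with earlier results of these data known. None of the 10 differed between the genotypes by edgeR's quasi-likelihood test (0 of 10 with an adjusted p under 0.05, and 0 of 10 with an unadjusted p under 0.05). Of all genes tested, 0.00724% passed the adjusted threshold, which was 1 gene (Gbp2b), and 5.83% had an unadjusted p under 0.05 (2.85% higher and 2.98% lower in Cre positive ventricles).

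RNA-seq was performed on whole left ventricles of mice of 6 to 10 weeks of age after surgical myocardial infarction (MI) by permanent closure of the left anterior descending coronary artery, and tissue was taken 4 days post injury (dpi). Both groups carried loxP sites in both alleles of Yap and in 1 allele of Wwtr1, the genes of the paired transcriptional co-activators at the end of the Hippo pathway, and both were fed tamoxifen citrate from the time of surgery. The 3 Cre negative mice carried only these alleles (Yap fl/fl;Wwtr1 fl/+). The 3 Cre positive mice were siblings that in addition carried MerCreMer, a tamoxifen-dependent recombinase, under the promoter of the endogenous periostin gene (Postn MCM). The driver acts in cells that make periostin, mainly myofibroblasts after MI, while the libraries were made from all cells of the ventricle. The comparison asks whether receptor and adaptor transcripts of the infarcted ventricle differed with the driver.

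Receptors for bacterial cell wall and membrane lipids (Tlr1, Tlr2, Tlr4 and Tlr6) act mostly at the cell surface, whereas receptors for nucleic acids (Tlr3, Tlr7, Tlr8 and Tlr9) act in endosomes. All of them except Tlr3 signal through Myd88, Tlr3 signals through Ticam1 (also called Trif), and Tlr4 uses both, and the kinases and ligases downstream activate NF-kB and interferon regulatory factors. In the infarcted heart these receptors are known for sensing material released from dying cells, and they are expressed by infiltrating macrophages and other leukocytes as well as by cells of the heart itself.

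Libraries held between 13177888 and 14827579 estimated reads on genes. The targeted genes did not separate the groups in whole ventricle, with log2 fold changes (Cre positive over Cre negative throughout) of 0.03 for Yap1 (SE 0.09, edgeR adjusted p = 0.935) and 0.05 for Wwtr1 (SE 0.08, adjusted p = 0.876), and that of Postn was -0.66 (SE 0.27, adjusted p = 0.714). Without Cre negative replicate 1, which is described below, Postn passed the test and was lower in Cre positive ventricles (log2 fold change -0.94, SE 0.08, edgeR adjusted p = 0.0182). Its normalized counts, a scale explained below, were 12157, 24639 and 26862 in Cre negative replicates 1, 2 and 3. They were 12682, 14240 and 13486 in Cre positive replicates 1, 2 and 3. The ventricle left out was below every Cre positive one, and the pass depends on leaving it out. Heart muscle transcripts were abundant in every library, with Actc1, the cardiac actin, at 15634 to 21511 TPM, the length-corrected share of a gene in its library. Cre negative replicate 1 stood apart from the other 5 ventricles. In a chi-square of counts per gene, where sampling alone gives about 1, it differed from each of them by 44.5 to 68.8 and they differed among themselves by 8.13 to 17.2, and no ventricle was a copy of another. It had the highest summed TPM of cardiomyocyte markers (59316 against 44440 to 49769 in the others) and of neutrophil markers (430 against 53.7 to 164), and the lowest of macrophage markers (2183 against 2721 to 3426). The fold changes of the members, and values of the other pathway genes and lists that it moved, are therefore also given without it, while levels and correlations include it. P-values measure the spread between these 3 and 3 mice. In bulk tissue, fewer cells of a type and less RNA per cell cannot be told apart.

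Levels per transcript length, in TPM, were led by the adaptors. Myd88 averaged 46.4 ± 7.02 TPM (SD, n = 6 ventricles) and Ticam1 21.3 ± 2.44 TPM. Tlr2, which pairs with Tlr1 or Tlr6 to bind lipopeptides, was the highest receptor among the members at 14.4 ± 2.54 TPM. Tlr13, a receptor outside the members that is described below, averaged 17.9 TPM. A plateau of 5 receptors followed, with Tlr1 at 10.0 ± 2.95 TPM, Tlr8 at 9.09 ± 2.68, Tlr7 at 8.99 ± 2.16, Tlr3 at 8.97 ± 1.12 and Tlr4 at 8.74 ± 1.997. Tlr9 (4.32 ± 1.37 TPM) and Tlr6 (2.47 ± 0.73 TPM) were lowest.

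The steps on either side of the plateau were seen in every ventricle. Myd88 exceeded Ticam1 by 1.11 on the log2 TPM scale (SD 0.10), Ticam1 exceeded Tlr2 by 0.58 (SD 0.15) and Tlr2 exceeded Tlr1 by 0.58 (SD 0.28), each in 6 of 6 ventricles. Tlr4 exceeded Tlr9 by 1.08 (SD 0.51) and Tlr9 exceeded Tlr6 by 0.77 (SD 0.29), again in 6 of 6. Each of these 5 steps had p = 0.03125 in a two-sided exact permutation test that flips signs within ventricles, the smallest p that 6 ventricles allow, and an adjusted p of 0.05625 over the 9 neighbouring pairs, so that no step could pass 0.05 unless more pairs reached that minimum. Within the plateau the higher gene of a pair led in only 3 or 4 of 6 ventricles (adjusted p between 0.469 and 0.969, same exact permutation test), and Tlr1, Tlr8, Tlr7, Tlr3 and Tlr4 were not told apart. Leaving out any 1 ventricle kept the first 4 and the last 2 genes in their places, and the 4 genes between them changed order in 5 of the 6 cases.

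**Figure D1:**
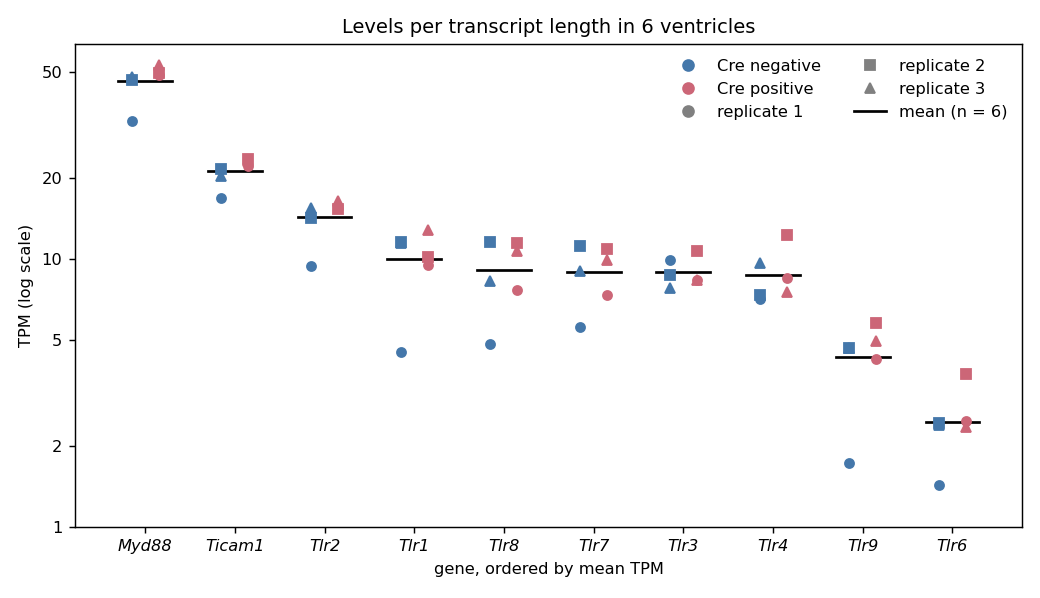
TPM (log axis) of each gene in each of 6 ventricles, ordered by mean TPM; colours give the genotype, symbols the replicate number and black lines the mean of 6. Myd88 is highest at 46.4 TPM and Tlr6 lowest at 2.47 TPM, 5 receptors lie close together between 8.74 and 10.0 TPM, and Cre negative replicate 1 is the lowest point of 9 genes.

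Among the surface receptors, Tlr2 (gene ID 24088, chr3:83836272-83841824, positions of GRCm38.p6 throughout) was measured at 232, 313 and 340 normalized counts in Cre negative replicates 1, 2 and 3 and at 337, 310 and 342 in Cre positive replicates 1, 2 and 3. Normalized counts are the rounded estimated counts scaled to the mean library size after TMM correction, and can be compared between ventricles but not between genes. The groups overlapped, and 5 of the 6 ventricles lay close together with Cre negative replicate 1 below them. The log2 fold change was 0.16 (SE 0.15, edgeR adjusted p = 0.764).

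Tlr4, the receptor for lipopolysaccharide (gene ID 21898, chr4:66827551-66846581), was at 487, 454 and 596 normalized counts in Cre negative and at 524, 702 and 442 in Cre positive ventricles. The highest and the lowest ventricle were both Cre positive, and the groups overlapped (log2 fold change 0.12, SE 0.18, edgeR adjusted p = 0.849).

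Tlr1 (gene ID 21897, chr5:64924680-64933600) and Tlr6 (gene ID 21899, chr5:64953092-64970942) are neighbouring genes of close sequence on chromosome 5. Tlr1 was at 103, 243 and 239 normalized counts in Cre negative and at 204, 196 and 259 in Cre positive ventricles. Tlr6 was at 44.7, 69.6 and 68.0 in Cre negative and at 69.7, 87.7 and 63.5 in Cre positive ventricles. For both genes Cre negative replicate 1 was the lowest of all and the other ventricles were interleaved. Log2 fold changes were 0.16 for Tlr1 (SE 0.30, edgeR adjusted p = 0.881) and 0.27 for Tlr6 (SE 0.24, edgeR adjusted p = 0.754).

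Reads were divided between Tlr1 and Tlr6 upstream. The deposited estimates were fractional in 5 of 6 ventricles, such as 247.96 for Tlr1 and 71.04 for Tlr6 in Cre negative replicate 2, but their sum was a whole number in every ventricle (126, 319 and 316 in Cre negative and 275, 307 and 330 in Cre positive). Tlr6 took between 19.6% and 30.8% of that sum. The reading frames of the 2 genes in the reference transcripts shared an identical run of 229 bases, from base 1468 to 1696 of Tlr1 and from 1507 to 1735 of Tlr6, and runs of 50 bases or more covered 748 bases (31.3%) of the Tlr1 frame. No other pair of these receptors shared a run over 16 bases. The run is shown because a read that falls wholly inside it cannot be assigned to 1 of the genes, with capitals for the identical bases and 20 bases of each gene on either side (5′ to 3′, sense strand).
Tlr1: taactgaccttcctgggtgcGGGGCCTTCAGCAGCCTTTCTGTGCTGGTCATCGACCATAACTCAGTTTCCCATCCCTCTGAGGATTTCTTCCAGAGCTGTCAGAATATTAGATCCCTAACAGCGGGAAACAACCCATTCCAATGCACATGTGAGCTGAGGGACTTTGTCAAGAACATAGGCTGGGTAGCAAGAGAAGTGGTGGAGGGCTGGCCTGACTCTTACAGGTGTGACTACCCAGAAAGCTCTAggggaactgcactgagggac
Tlr6: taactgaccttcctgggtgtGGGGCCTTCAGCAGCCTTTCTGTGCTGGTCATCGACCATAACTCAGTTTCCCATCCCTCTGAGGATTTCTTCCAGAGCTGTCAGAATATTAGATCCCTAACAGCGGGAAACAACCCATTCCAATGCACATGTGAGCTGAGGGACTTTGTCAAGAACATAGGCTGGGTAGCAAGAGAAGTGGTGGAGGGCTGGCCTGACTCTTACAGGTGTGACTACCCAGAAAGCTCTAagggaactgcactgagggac
The separate levels of Tlr1 and Tlr6 are uncertain to that extent. Summed and fitted as 1 gene, a choice made after the data were seen, they had a log2 fold change of 0.19 (SE 0.26, edgeR adjusted p = 0.830), which was -0.08 without Cre negative replicate 1 (SE 0.11, edgeR adjusted p = 0.909).

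Among the endosomal receptors, Tlr3, the receptor for double-stranded RNA (gene ID 142980, chr8:45395665-45411075), was the only member with a fold change under 0 (log2 fold change -0.08, SE 0.15, edgeR adjusted p = 0.888). It was at 369, 291 and 264 normalized counts in Cre negative and at 276, 331 and 267 in Cre positive ventricles. It was also the only member for which Cre negative replicate 1 was the highest ventricle. The other 5 ventricles were interleaved between the genotypes.

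Tlr7 (gene ID 170743, chrX:167303380-167330574) and Tlr8 (gene ID 170744, chrX:167241123-167264329), receptors for single-stranded RNA, are neighbours on the X chromosome. Tlr7 was at 185, 330 and 264 normalized counts in Cre negative and at 216, 298 and 277 in Cre positive ventricles, a log2 fold change of 0.02 (SE 0.22, edgeR adjusted p = 0.982). Tlr8 was at 182, 401 and 285 in Cre negative and at 270, 378 and 352 in Cre positive ventricles, a log2 fold change of 0.20 (SE 0.27, edgeR adjusted p = 0.826). For both genes replicate 2 was the highest and replicate 1 the lowest ventricle of each genotype.

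Tlr9, the receptor for unmethylated CpG DNA (gene ID 81897, chr9:106222598-106226876), had the highest fold change of the members (log2 fold change 0.33, SE 0.31, 95% interval -0.40 to 1.06, edgeR adjusted p = 0.764). It was at 51.7, 125 and 124 normalized counts in Cre negative and at 112, 142 and 126 in Cre positive ventricles. Cre negative replicate 1 was far below the other 5, among which the Cre negative values of 125 and 124 lay between the Cre positive ones.

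Myd88 (gene ID 17874, chr9:119335934-119340018) was at 527, 672 and 686 normalized counts in Cre negative and at 696, 657 and 724 in Cre positive ventricles. Cre positive replicate 2 lay below 2 of the Cre negative ventricles, so that the groups overlapped (log2 fold change 0.14, SE 0.12, edgeR adjusted p = 0.739). Ticam1 (gene ID 106759, chr17:56269462-56276767) was at 410, 471 and 442 in Cre negative and at 480, 472 and 479 in Cre positive ventricles. It was the only member whose groups did not overlap, although the lowest Cre positive value (471.7) exceeded the highest Cre negative value (470.9) by less than 1 normalized count. All Cre positive ventricles lay above in 7.55% of all genes tested and all lay below in 6.85%. The log2 fold change of Ticam1 was 0.11 (SE 0.09, edgeR adjusted p = 0.731), and the two-sided exact permutation p on its normalized counts was 0.1, the smallest that 3 against 3 allow. Exact permutation p-values of the other 9 members ranged from 0.4 to 1.0.

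**Figure D2:**
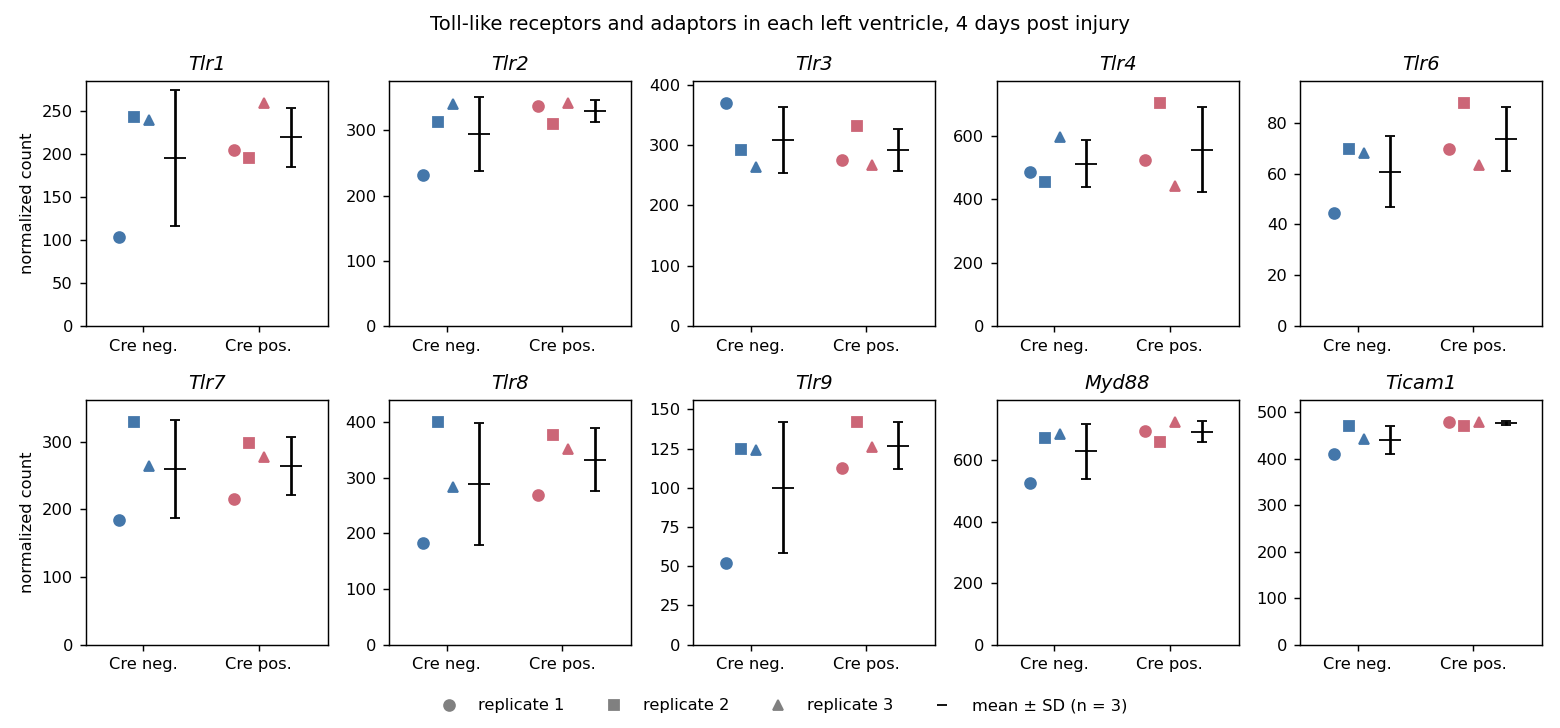
Normalized count of each of 10 genes in every ventricle (vertical axes start at 0), with Cre negative in blue, Cre positive in red, symbols for the replicate number, and mean ± SD of 3 ventricles in black. The groups overlap for every gene but Ticam1, and the circle of Cre negative replicate 1 is the lowest point for 8 genes and the highest for Tlr3.

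Fold changes of the members leaned to 1 side without passing a test. Log2 fold changes were above 0 for 9 of 10 members, compared to 51.2% of all genes tested, and the median was 0.15 for the members and 0.0062 for all genes tested. The genes are measured in the same 6 ventricles and are not replicates of each other. The 95% intervals of single members reached from -0.54 to 0.87 for Tlr1, from -0.19 to 0.51 for Tlr2, from -0.13 to 0.41 for Myd88 and from -0.10 to 0.32 for Ticam1, and differences within these intervals are not excluded.

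The lean rested largely on 1 ventricle. Cre negative replicate 1 was the lowest of 6 for 8 of 10 members, whereas it was lowest for 32.1% and highest for 30.8% of all genes tested. Relative to the mean of the other 5 ventricles it held 41.1% of the normalized count of Tlr9, 45.3% of Tlr1, 54.1% of Tlr8, 62.3% of Tlr6, 66.6% of Tlr7 and 70.5% of Tlr2. The adaptors were nearer to the others (76.7% for Myd88 and 87.5% for Ticam1), Tlr4 was at 89.5% and Tlr3 at 129%. Without this ventricle the log2 fold change of Tlr9 was 0.02, that of Tlr6 0.09, that of Tlr4 0.08, that of Tlr2 0.01 and that of Myd88 0.02, while Tlr1 (-0.14), Tlr7 (-0.17) and Tlr8 (-0.04) came below 0 and Tlr3 (0.06) above it. Then 7 of 10 members were above 0, compared to 50% of all genes, the members' median was 0.02 and edgeR's adjusted p was between 0.871 and 0.994, and 0.0143% of all genes passed. Ticam1 kept its order without it (log2 fold change 0.06), in a comparison of 2 with 3 ventricles in which all Cre positive ventricles lay above for 12.1% of all genes tested.

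**Figure D3:**
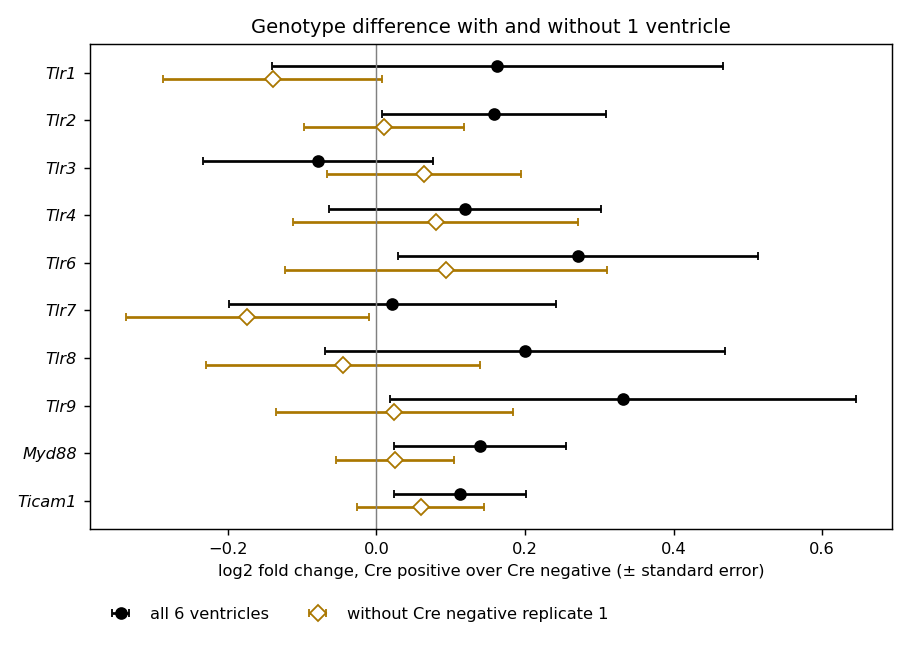
Log2 fold change of each gene, Cre positive over Cre negative, with standard errors from edgeR, for all 6 ventricles (filled circles) and without Cre negative replicate 1 (open diamonds). Tlr9 moves from 0.33 to 0.02 and Tlr1 from 0.16 to -0.14, and 9 of 10 circles but 7 of 10 diamonds lie above 0.

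Summed levels of macrophage and dendritic cell markers were lowest in that ventricle, although single markers were lowest there less uniformly (4 of 9 macrophage and 3 of 6 conventional dendritic cell markers). The 9 macrophage markers, led by C1qb, summed to 2183, 3239 and 3426 TPM in Cre negative and to 2914, 2721 and 3140 TPM in Cre positive ventricles. The 6 markers of conventional dendritic cells summed to 76.0, 178 and 159 TPM against 113, 135 and 224 TPM, and the 5 of plasmacytoid dendritic cells to 149, 310 and 195 TPM against 238, 279 and 241 TPM. By these sums, Cre negative replicate 1 was the lowest ventricle for each of these 3 lists, as it was for the 6 fibroblast markers (4795 TPM against 7345 to 8664 TPM in the others), the 5 endothelium markers (369 TPM against 427 to 501 TPM) and the 5 T cell markers (2.43 TPM against 3.17 to 9.88 TPM). The 5 monocyte markers summed to 155, 241 and 129 TPM against 232, 236 and 195 TPM, lowest in Cre negative replicate 3. Neutrophil markers went the other way, with 430, 91.9 and 53.7 TPM in Cre negative and 164, 73.2 and 138 TPM in Cre positive ventricles. B cell markers ranged from 7.32 to 62.7 TPM, and no marker of any list was at 0 in every ventricle. The part of cell composition in the levels of the members was not tested.

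The members were also expressed per 1000 TPM of summed macrophage markers in the same ventricle, a ratio chosen after the data were seen. On this scale Tlr2 was at 4.32, 4.40 and 4.54 in Cre negative and at 5.31, 5.64 and 5.23 in Cre positive ventricles. Myd88 was at 15.04, 14.40 and 13.96 against 16.7, 18.2 and 16.9. For both genes the Cre negative ventricles, replicate 1 included, lay close together and below all Cre positive ventricles. Tlr9 was at 0.793, 1.43 and 1.36 against 1.45, 2.11 and 1.58, and did not overlap by a narrow margin. The other 7 members overlapped, Ticam1 among them. All Cre positive ventricles lay above in 10.8% and below in 0.347% of all genes on this scale, so genes in general leaned upward in Cre positive ventricles on this scale.

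**Figure D4:**
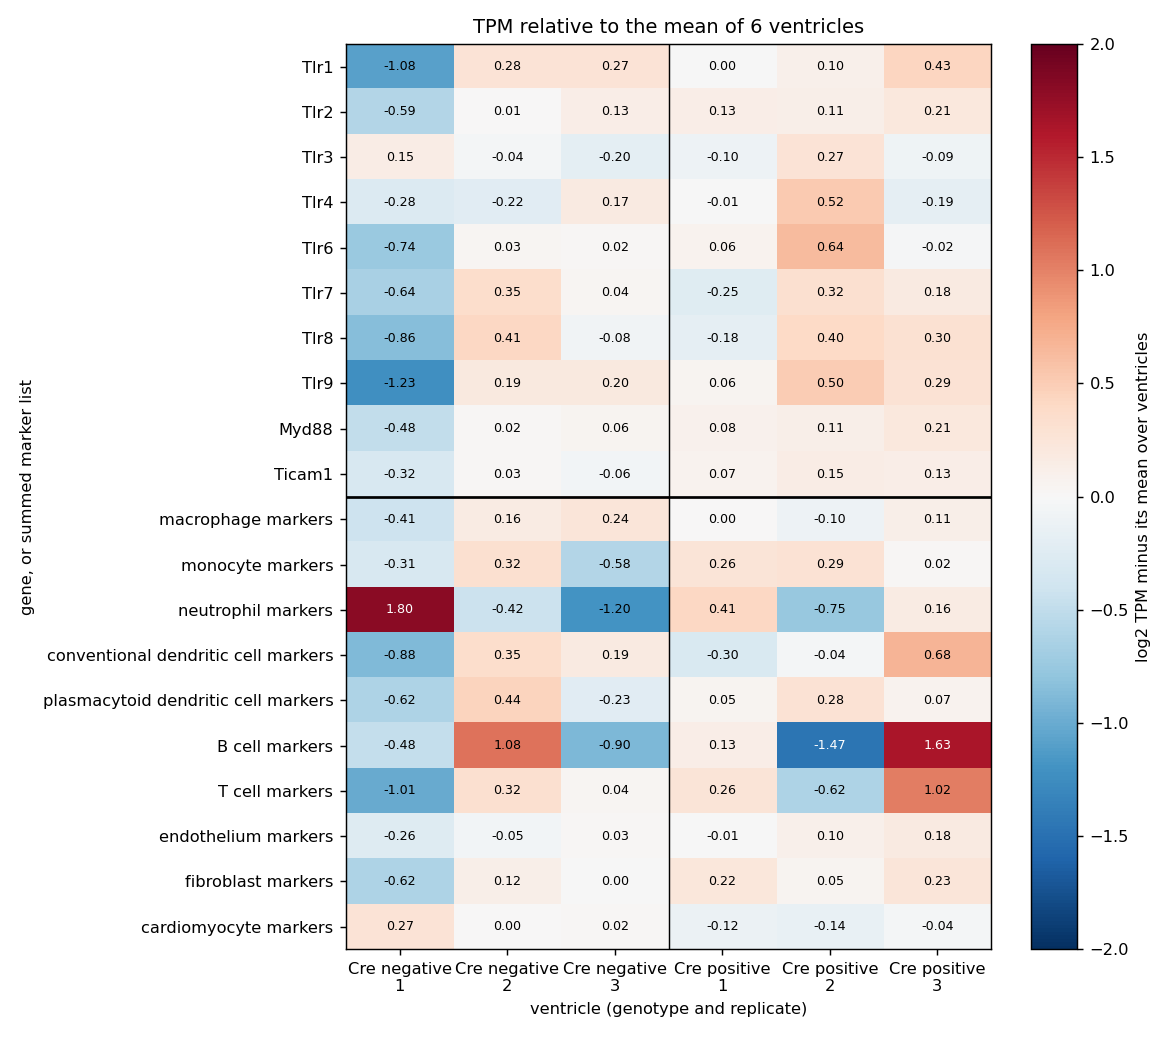
Heat map of log2 TPM minus its mean over 6 ventricles (printed in each cell; colour scale from -2 to 2) for the 10 genes and for summed cell type markers. The column of Cre negative replicate 1 is below its row mean for 9 genes, lowest for Tlr9 at -1.23, and for macrophage markers at -0.41, and above it for Tlr3 at 0.15, neutrophil markers at 1.80 and cardiomyocyte markers at 0.27.

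Members differed in how much they varied between ventricles. Of the biological coefficients of variation that edgeR estimated, those of Tlr9, Tlr1 and Tlr8 lay at percentiles 88.9, 88.3 and 84.4 of all genes tested, that of Myd88 at percentile 29.3 and that of Ticam1 at percentile 6.09. Among Cre negative ventricles the SD was 41.9% of the mean for Tlr9 and 40.7% for Tlr1, against 11.7% and 15.6% among Cre positive ventricles. For these genes that spread came from replicate 1, since the other 2 Cre negative ventricles had an SD of 0.160% of their mean for Tlr9 and 1.29% for Tlr1. An SD of 2 values is a poor measure of spread, and no lower spread of Cre negative ventricles is read from it. For Tlr8 the same 2 ventricles had an SD of 24.1% of their mean, against 16.9% among Cre positive ventricles. For Ticam1 the SD was 6.88% of the mean in Cre negative (4.49% without replicate 1) and 0.952% in Cre positive ventricles. Summed by class, surface receptors were at 22.4, 35.6 and 39.1 TPM in Cre negative and 36.0, 41.6 and 39.2 TPM in Cre positive ventricles, endosomal receptors at 22.04, 36.1 and 29.7 TPM against 27.6, 38.9 and 33.9 TPM, and adaptors at 49.8, 68.3 and 68.2 TPM against 70.9, 73.2 and 76.4 TPM. The adaptor sums did not overlap, and neither did Myd88 alone on the TPM scale (32.8, 46.7 and 47.8 TPM against 48.7, 49.6 and 53.1 TPM). On that scale all Cre positive ventricles lay above for 14.97% of all genes. The 8 cardiomyocyte markers, which take a large share of all TPM, summed to 59316, 49148 and 49769 TPM in Cre negative and to 45166, 44440 and 47836 TPM in Cre positive ventricles, and their part in this difference between the scales was not tested.

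Genes whose log2 normalized counts followed the 3 most abundant members most closely over the 6 ventricles were sought among 11990 genes with a mean of at least 50 normalized counts. They were Plekhg5 (Pearson r 0.999), Cmtm3 (0.995) and Mbtps1 (0.995) for Myd88, Wdr73 (0.996), Atxn2l (0.990) and Khsrp (0.988) for Ticam1, and Padi2, G6pdx and Nxpe5 (0.995 each) for Tlr2. These are the extremes of many correlations over 6 libraries that share depth and composition, and they are a description only, with Cre negative replicate 1 included.

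Promoter windows of RefSeq (GRCm38.p6, 250 bases before to 50 after the transcript start) were found for 8 of the 10 members, with 10 windows in all. They were searched on both strands for the TEAD motif GGAATG, through which Yap and Wwtr1 act on DNA, the PU.1 motif GAGGAA of myeloid genes, a 10-base interferon-stimulated response element and a 10-base NF-kB motif, each with 2 free bases inside it. GGAATG was in 0 of 10 windows and in 14.7% of all 32851 windows. GAGGAA was in 4 of 10 windows and in 28.3% of all, at bases -23 (Tlr1), -77 (Tlr8), -112 and 13 (Tlr9) and -30 (Ticam1) from the start. The interferon element was in 2 of 10 and in 3.44% of all, from base -40 to -31 in Myd88 and as a pair of overlapping matches in Tlr6. The NF-kB motif was in 1 of 10, that of Tlr3, and in 1.63% of all. No match of 1 motif overlapped a match of another. The windows of Tlr1 (chr5:64933509-64933808, minus strand), Tlr8 (chrX:167264280-167264579, minus strand) and Tlr9 (chr9:106222348-106222647, plus strand) are shown because these genes were furthest below the others in Cre negative replicate 1, and that of Myd88 (chr9:119339969-119340268, minus strand) because it was the most abundant member. Each reads 5′ to 3′ along the gene, with matches to the motifs in capitals. Tlr1 had a second window (chr5:64932650-64932949, minus strand) without a match, which is not shown.
Tlr1: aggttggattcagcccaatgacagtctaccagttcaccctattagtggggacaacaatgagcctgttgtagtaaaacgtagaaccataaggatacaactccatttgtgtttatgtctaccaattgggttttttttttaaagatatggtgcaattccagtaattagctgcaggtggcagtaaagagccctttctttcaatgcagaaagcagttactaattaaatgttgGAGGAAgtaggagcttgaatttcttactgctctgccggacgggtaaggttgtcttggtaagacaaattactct
Tlr8: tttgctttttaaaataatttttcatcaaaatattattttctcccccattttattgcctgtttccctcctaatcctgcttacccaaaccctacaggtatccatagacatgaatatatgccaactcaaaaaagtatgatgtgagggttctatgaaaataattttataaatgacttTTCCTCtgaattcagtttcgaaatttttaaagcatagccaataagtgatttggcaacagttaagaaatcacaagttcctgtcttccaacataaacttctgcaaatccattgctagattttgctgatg
Tlr9: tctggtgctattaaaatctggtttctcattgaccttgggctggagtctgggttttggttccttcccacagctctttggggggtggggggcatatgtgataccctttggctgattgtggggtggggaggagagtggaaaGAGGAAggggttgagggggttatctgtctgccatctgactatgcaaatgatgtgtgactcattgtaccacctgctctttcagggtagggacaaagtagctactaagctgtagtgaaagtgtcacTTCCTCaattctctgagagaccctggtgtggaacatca
Myd88: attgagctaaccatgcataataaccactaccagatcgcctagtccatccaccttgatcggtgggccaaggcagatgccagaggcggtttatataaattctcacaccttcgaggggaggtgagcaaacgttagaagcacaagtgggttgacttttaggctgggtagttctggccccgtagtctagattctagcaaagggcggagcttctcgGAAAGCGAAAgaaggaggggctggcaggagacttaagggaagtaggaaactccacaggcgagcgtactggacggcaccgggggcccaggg
A match is a description of letters and not of binding.

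The rest of the pathway was read from 9 lists of 99 genes, of which 90 were tested. By edgeR's quasi-likelihood test 0 of 90 passed an adjusted p of 0.05 (smallest adjusted p 0.714), 7 of 90 (7.78%) had an unadjusted p under 0.05 against 5.83% of all genes, 62 had a log2 fold change above 0 and 28 below it, and the median was 0.06. All 7 genes had an adjusted p of 0.714. They came from the signalling enzymes, the transcription factors, the induced targets and the endogenous ligands, and with all ventricles none was a receptor, co-receptor, chaperone or adaptor. Without Cre negative replicate 1, 13 of the 90 had an unadjusted p under 0.05 (14.4%, against 6.59% of all genes), of which 5 were among the 7, and 0 passed the adjusted threshold in edgeR (smallest adjusted p 0.725).

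Of the signalling kinases and ligases, 11 of 17 were above 0 (median 0.07). Traf3, the ligase that links Ticam1 to interferon genes, was at 608, 593 and 674 normalized counts in Cre negative and at 782, 786 and 783 in Cre positive ventricles (log2 fold change 0.33, edgeR unadjusted p = 0.00428). Ripk1, a kinase that Ticam1 binds, was at 295, 377 and 413 against 465, 517 and 484 (log2 fold change 0.43, edgeR unadjusted p = 0.0128). For both genes every Cre positive ventricle was above every Cre negative one, as it was for 3 of these 17 genes (the third was Chuk, at 0.21), while all lay below for 1, Tab3 (-0.24), against 7.55% above and 6.85% below of all genes tested. Tab1, a subunit of the Tak1 kinase complex, had a log2 fold change of -0.28 (edgeR unadjusted p = 0.0478) with overlapping groups.

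Of the transcription factors 10 of 10 were above 0, with a median of 0.09 that was -0.0036 without Cre negative replicate 1, when 5 of 10 were above 0. Nfkb2, a subunit of NF-kB, was at 819, 948 and 875 normalized counts against 1069, 1024 and 966 (log2 fold change 0.21, edgeR unadjusted p = 0.0494), and its groups did not overlap. Of the induced targets, 13 of 15 tested were above 0 (median 0.26, and 0.20 without Cre negative replicate 1). Il1b, the cytokine interleukin 1 beta, was at 30.6, 29.4 and 47.6 normalized counts in Cre negative and at 60.7, 70.1 and 105 in Cre positive ventricles, and the groups did not overlap (log2 fold change 1.13, SE 0.31, edgeR unadjusted p = 0.00659).

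Of the endogenous ligands, 7 of 12 tested were above 0 (median 0.05), and 10 of 12 without Cre negative replicate 1 (median 0.23). Hspa1b, an inducible heat shock protein, was at 135, 133 and 112 normalized counts against 200, 189 and 180 (log2 fold change 0.58, edgeR unadjusted p = 0.00287). Vcan, the matrix proteoglycan versican, was at 1092, 1460 and 1419 against 1678, 1720 and 1678 (log2 fold change 0.35, edgeR unadjusted p = 0.0196). Neither gene had overlapping groups. Without Cre negative replicate 1, edgeR's unadjusted p was 0.00663 for Traf3, 0.0129 for Ripk1, 0.0140 for Il1b, 0.00261 for Hspa1b and 0.0109 for Vcan (log2 fold change 0.23), and 0.0969 for Nfkb2 and 0.0572 for Tab1. The other 8 genes under 0.05 in that fit, named after their values were seen, were Ptgs2 (log2 fold change 1.07, unadjusted p = 0.00229 in edgeR), S100a8 (1.48), Fn1 (0.24) and Lrrc8c (0.21) above 0 and Ager (-1.01), Cd300a (-0.48), Lgals3 (-0.44) and Irf5 (-0.23) below 0. In the same fit 1 of 9 macrophage markers was above 0 (median -0.24) and 5 of 6 neutrophil markers, S100a8 among them, were above 0 (median 0.43). With all ventricles the neutrophil markers went the other way, with 1 of 6 above 0 (median -0.63, lowest -1.06). Of the macrophage markers 4 of 9 were then above 0 (median -0.10). The part of these cells was not tested.

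The remaining lists hold the rest of the receptor family, co-receptors, chaperones, other adaptors and negative regulators. Of the other Toll-like receptors, Tlr13, an endosomal receptor for bacterial ribosomal RNA, was at 357, 644 and 567 normalized counts against 528, 665 and 527 (log2 fold change 0.13, and -0.08 without Cre negative replicate 1), and Tlr5, the flagellin receptor, at 35.0 to 54.1. Tlr11 (0 to 4 estimated counts per ventricle) and Tlr12 (1 to 5) were too low to test. Among 9 co-receptors and accessory proteins, 4 were above 0, and the largest values among those of at least 50 normalized counts were -0.42 for Cd36, a fatty acid transporter and co-receptor of Tlr2, and -0.35 for Lbp, which carries lipopolysaccharide. Both were highest in Cre negative replicate 1 (18711 normalized counts of Cd36 and 581 of Lbp), and without it the values were -0.10 for Cd36 and 0.0041 for Lbp. Among 8 chaperones and trafficking genes 7 were above 0, led by Hsp90b1 (0.27), the chaperone of most of these receptors, and Lrrc8c (0.16), which encodes an anion channel subunit and is not a known receptor chaperone. Lrrc8c was at 873, 809 and 748 normalized counts against 877, 912 and 929, and was the 1 gene of these lists whose groups did not overlap, against 7.55% of all genes with all Cre positive ventricles above. Cre negative replicate 1 was lowest for 7 of these 8, and without it 3 of 8 were above 0 (Hsp90b1 at 0.15) and the median went from 0.05 to -0.04. Ticam2, which links Tlr4 to Ticam1, had 0.32 and Pik3ap1 0.17 among 3 other adaptors tested, and 0.22 and -0.08 without Cre negative replicate 1. Of 14 negative regulators 5 were above 0, and the values ranged from -0.24 to 0.67. Among those of at least 50 normalized counts, Socs1 was at -0.24 and Dusp1 at -0.19 (-0.41 and -0.09 without Cre negative replicate 1).

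**Figure D5:**
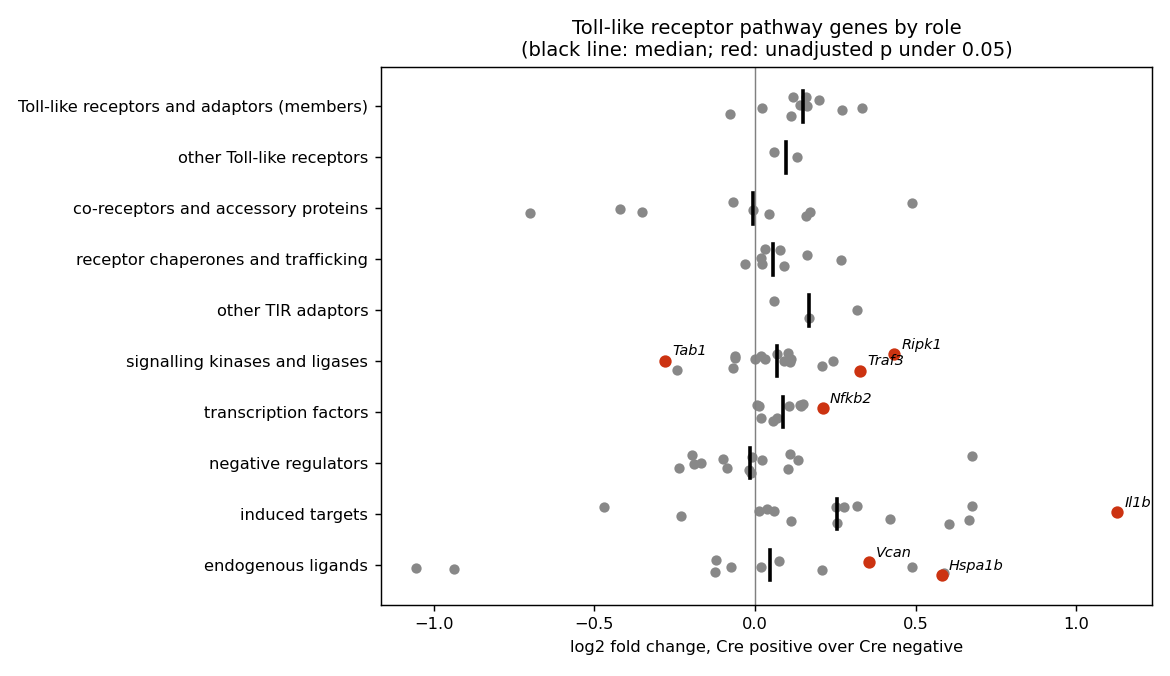
Log2 fold change, Cre positive over Cre negative, of each tested gene of the pathway by role (points, spread vertically for legibility), with list medians as black lines and genes of unadjusted p under 0.05 in red and named. The 10 receptors and adaptors of the top row lie between -0.08 and 0.33, and Il1b is furthest to the right at 1.13; no gene passed an adjusted p of 0.05.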

How the data were processed

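Left ventricles of 6 mice were measured by bulk RNA-seq, 3 for each genotype. The authors deposited an estimated count, a TPM value (a length-corrected share of the library) and an FPKM value for each gene and ventricle; FPKM and the authors' group means were not used. The submitters' processing notes name Bowtie2 2.2.5, RSEM 1.2.12 and GRCm38.p6; the annotation and strand setting are not given in the sources used here. A deposited comparison holding the authors' own fold changes, p-values and q-values was not used.

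Estimated counts were rounded to whole numbers, filtered (edgeR's filterByExpr, minimum count 10, minimum total 15), scaled by TMM and tested with edgeR 4.0.16 (R 4.3.3, quasi-likelihood, Benjamini-Hochberg over all 13817 genes, threshold 0.05), without a replicate block. The code was first tested on simulated data. Exact permutation tests were two-sided (scipy 1.17.1). Levels of different genes were compared in TPM only. Alternatives included DESeq2 1.42.0, limma 3.58.1 on log2(TPM + 1), other scalings and filters, and leaving out each ventricle. A count of 0 allows up to 3 counts, or 0.202 to 0.228 CPM, covering counting error only. The members and lists were chosen with earlier results of these data known. Besides members and targeted genes, the text names genes of each pathway list with an unadjusted p under 0.05, otherwise the 2 with the largest fold change among those with a mean of at least 50 normalized counts, and leading cell type markers; Tlr5, Tlr11 and Tlr12 complete the receptor family and, like Chuk and Tab3, were named after their values were seen. Positions and promoters are from RefSeq, and reading frames from GENCODE M39 transcripts without coordinates.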

Additional observations from a re-analysis of the deposited data

How the results depend on the processing

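Members passed an adjusted p of 0.05 in 0 of 142 refits of single members under the alternatives (smallest adjusted p 0.537), of which 134 kept the direction and 8 reversed it. With limma on log2(TPM + 1), Tlr3 was at 0.048, and the median of all genes moved to 0.11 with 73.1% of genes above 0, so directions on that scale are relative to this shift. Leaving out 1 ventricle at a time gave log2 fold changes from -0.14 to 0.35 for Tlr1, -0.18 to 0.065 for Tlr3, -0.085 to 0.26 for Tlr4, -0.17 to 0.23 for Tlr7 and -0.045 to 0.51 for Tlr8. The reversals were without Cre negative replicate 1 (Tlr1, Tlr3, Tlr7 at -0.17 and Tlr8), without Cre positive replicate 2 (Tlr4, and Tlr7 at -0.08) and without Cre positive replicate 3 (Tlr7 at -0.02), and the cause was not tested. Members above 0 numbered 7 to 9 of 10 under these leave-outs and 9 or 10 otherwise, and their median lay between 0.02 and 0.22 in the fits on counts. Members with all Cre positive ventricles above numbered 2 (Ticam1 and Myd88) with TPM in place of 1, against 14.97% of all genes in place of 7.55%. Over all genes, 1 was called, 5 by DESeq2's Wald test, 2 by limma and 0 to 2 when 1 ventricle was left out (2 without Cre negative replicate 1, and 0 without Cre negative replicate 3, Cre positive replicate 1 or Cre positive replicate 3, where 1346, 556 and 513 genes had an unadjusted p under 0.05 in edgeR).

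Whether replicate numbers pair the ventricles was not settled. Deviations of same-numbered ventricles correlated at 0.44, 0.20 and -0.03. Cre negative replicates 1 and 2 correlated best with their own number, and Cre negative replicate 3 with Cre positive replicate 2 (0.37). Y-linked counts, given below, were low in replicate 2 of both genotypes (16 and 12) and high in replicates 1 and 3. With the number as a replicate block, 0 genes were called by edgeR, with 1217 at an unadjusted p under 0.05 and 5 by DESeq2 without the block, and no member was called.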

Other observations

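Y-linked genes separated the ventricles within each genotype. Counts summed over 4 Y-linked genes were 1870, 16 and 2034 in Cre negative and 1592, 12 and 1975 in Cre positive replicates 1, 2 and 3. By these counts replicate 2 of each genotype was female and the others were male, so each group mixed the sexes in the same way. The X-linked receptors Tlr7, Tlr8 and Tlr13 were each highest, within each genotype, in replicate 2. This was not particular to the X chromosome. The autosomal members Tlr6 (69.6 and 87.7 normalized counts) and Tlr9 (125 and 142) were also highest in replicate 2 of each genotype, narrowly so in Cre negative ventricles. Tlr13 was at 644 and 665 normalized counts in replicate 2, against 357 to 567 in the other ventricles. With the Y-linked counts as a covariate no member was called by edgeR. The association of these levels with the Y-linked counts was itself not tested.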
